A study of Mus musculus with 40 samples.

Results

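Whole mouse embryos in which both KAT6 acetyltransferases carry a substitution in the acetyltransferase domain were compared with embryos that lack KAT6A. The comparison used 8 of the 40 bulk RNA-sequencing libraries of the series: 4 labelled *Kat6a* G656E/G656E and *Kat6b* G577E/G577E (*Kat6a* E/E;*Kat6b* E/E, here double E/E) and 4 labelled *Kat6a* cfd/cfd and *Kat6b* WT (*Kat6a*-/-). The libraries were taken by these labels alone. Each library was made from a whole embryo at E9.5, and the embryos received no treatment. The double E/E embryos carry a substituted residue in all 4 alleles. The paper describes both changes as compatible with a full-length protein, and these libraries do not measure protein. The *Kat6a*-/- embryos carry a germline allele that lacks several exons and have normal *Kat6b*, so the groups differ at both genes. The point mutations were made by CRISPR in C57BL/6J mice, and the null allele was kept on C57BL/6. Another 4 WT libraries of the same stage are given as a reference, and the other 12 embryo libraries entered the fit. The comparison asks how far loss of the enzymatic function of both proteins resembles loss of the whole KAT6A protein in its effect on RNA levels.

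KAT6A (MOZ) and KAT6B (MORF, Querkopf) are related catalytic subunits of chromatin complexes that transfer acetyl groups to lysines of histone H3. The complexes also contain BRPF, ING and MEAF6 subunits, and their reader domains bind modified histones without needing the enzymatic domain. In the mouse embryo KAT6A is known for its role in *Hox* gene expression along the body axis, in *Tbx1*-dependent development of the pharyngeal arches and great vessels, and in blood stem cells. KAT6B is known for its role in the developing nervous system.

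Both substitutions replace a glycine of the acetyl-CoA binding part of the enzyme with glutamic acid. The reference coding sequence around each glycine codon, read from GRCm39 on the plus strand with the codon in capitals, shows what was mutated in the double E/E embryos. The *Kat6a* codon lies in exon 13 at chr8:23416459-23416461 and the window is chr8:23416435-23416485. The *Kat6b* codon lies in exon 12 at chr14:21687681-21687683 and the window is chr14:21687657-21687707.
Kat6a G656E: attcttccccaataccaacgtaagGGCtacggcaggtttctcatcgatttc
Kat6b G577E: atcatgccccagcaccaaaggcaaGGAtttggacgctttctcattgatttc
The windows of 51 bases were identical at 35 positions, so the same part of the protein is changed in both genes.

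The counts per library were 11498135 to 21725329 in *Kat6a*-/- and 14678249 to 17759715 in double E/E. The *Kat6a*-/- embryos came from 3 litters and the double E/E embryos from 3 others, so litter, colony and genotype cannot be told apart in this comparison. WT replicate 1 was a litter-mate of *Kat6a*-/- replicate 2. Markers of heart, neural tube, somites and red cells were present in all 8 libraries, as whole embryos should have, and the placental markers *Prl3d1*, *Prl8a2* and *Tpbpa* had at most 3 counts. *Kat6a*-/- replicate 2 held 7934 counts of *Xist* and 3 counts of Y-linked genes, whereas the study describes male embryos. Double E/E replicate 2 held high hypoxia response RNAs. In a plain least-squares form of the model used below, without precision weights or litter correlation, this library carried 4.92% of the weight of its group. Each of the other 3 carried 24.8% to 37.4%. *Kat6a*-/- replicates 3 and 4 held the most visceral endoderm RNA of their group. The main counts that rest on these libraries are given with and without them.

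The 2 mutants differed in 1 of 14183 genes at FDR<0.05 (0.00705%), in a limma model that adjusted for 4 surrogate variables and treated litter-mates as correlated. Against WT with the same model, 375 genes (2.64%) passed in *Kat6a*-/- and 413 (2.91%) in double E/E. These comparisons share the WT libraries. At an unadjusted p under 0.05, 783 genes (5.52%) were higher in double E/E and 696 (4.91%) were lower. In 488 genes (3.44%) every double E/E library lay above every *Kat6a*-/- library, and in 460 (3.24%) every one lay below. Apart from the single called gene, the values below are therefore differences that did not pass the adjusted test, and the shares of all genes just given are the background for each gene list. A positive log2 fold change means a higher level in double E/E, and CPM is the count scaled to the library's TMM-adjusted total. The median log2 fold change over all genes was 4e-04.

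The called gene was *Bhlhe22* (chr3:18108338-18111681, plus strand), which encodes a basic helix-loop-helix factor of neuronal differentiation. Its level was 0.706, 1.46, 0.938 and 1.17 CPM in the 4 *Kat6a*-/- libraries and 2.59, 3.58, 2.82 and 2.49 CPM in the 4 double E/E libraries. All double E/E libraries were above all *Kat6a*-/- libraries. This was a log2 fold change of 1.37 (SE 0.226, limma FDR 0.0289). WT libraries were at 3.98, 4.2, 3.55 and 2.47 CPM. The null embryos were therefore below WT (log2 fold change -1.57, FDR 0.000285), and double E/E lay 0.2 below WT on the log2 scale without passing the test (FDR 0.618). WT replicate 1, at 3.98 CPM, was a litter-mate of *Kat6a*-/- replicate 2 only. It is 1 library, and the part of litter was not tested. The call was lost (FDR 0.0739) without *Kat6a*-/- replicate 2, the library with *Xist*, and likewise without *Kat6a*-/- replicate 1 (FDR 0.136), *Kat6a*-/- replicate 3 (FDR 0.16) or double E/E replicate 3 (FDR 0.136). It was also lost with 0 or 2 surrogate variables (FDR 0.235 and 0.0768), while the log2 fold change stayed between 1.26 and 1.47 in all 24 alternative settings with an adjusted p. In bulk embryo RNA, fewer cells of a type and less RNA per cell cannot be told apart.

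**Figure D1:**
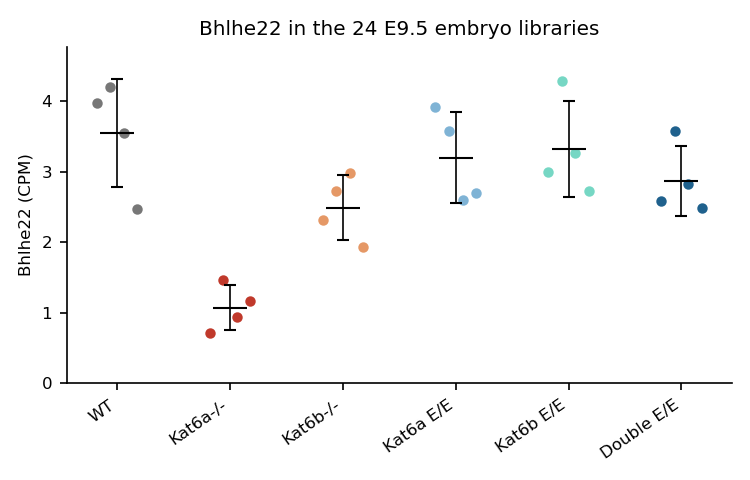
*Bhlhe22* in CPM (y axis, from 0) in the 24 E9.5 libraries by genotype (x axis). Each point is a library and the bars are the mean and SD of 4 libraries. The *Kat6a*-/- libraries lie between 0.706 and 1.46 CPM, below all other libraries, and the double E/E libraries lie between 2.49 and 3.58 CPM, within the range of WT.

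Several genes of neural tube progenitors were higher in double E/E than in the null at the unadjusted level. Of 29 neural progenitor genes, 10 (34.5%) were higher and 1 (3.45%) was lower at an unadjusted p under 0.05, against the background of 5.52% and 4.91%, and the median log2 fold change was 0.093. None passed FDR<0.05 by limma. Against WT, the median of the list was -0.223 in *Kat6a*-/- and -0.13 in double E/E on the log2 scale, with the same WT libraries in both. The summed level of the list was 2732, 3126, 2814 and 2778 CPM in *Kat6a*-/- and 2950, 3444, 3103 and 2979 CPM in double E/E, against 3266 to 3563 CPM in WT, and only null replicate 2 reached into the double E/E range. The 10 genes were *Sox2*, *Sfrp2*, *Nkx6-2*, *Nes*, *Pax6*, *Shh*, *Irx3*, *Sox3*, *Sox1* and *Vim*, and the lower one was *Zic1*, a factor of the dorsal neural tube. In 25 alternative settings the number higher was 6 to 11. Without double E/E replicate 2 it was 7, and without *Kat6a*-/- replicates 3 and 4 it was 6, with 6 lower.

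*Sox2*, the transcription factor that maintains neural progenitors, was at 103, 148, 122 and 125 CPM in *Kat6a*-/- and at 149, 175, 167 and 159 CPM in double E/E. The groups did not overlap, but the highest null library and the lowest double E/E library were next to each other. The difference was 0.31 on the log2 scale (SE 0.0733, FDR 0.162), and WT was at 159 to 186 CPM. The gene *Gm64654* overlaps 59.9% of the *Sox2* transcript, and these libraries do not keep strand. *Sox1* and *Sox3*, the other members of the same subfamily, had log2 fold changes of 0.23 (FDR 0.461) and 0.21 (FDR 0.414) with overlapping groups. The intermediate filament gene *Nes*, a marker of progenitors, was at 237, 291, 244 and 242 CPM in the null and at 286, 300, 320 and 331 CPM in double E/E. Only *Kat6a*-/- replicate 2 reached into the double E/E range. Its log2 fold change was 0.3 (SE 0.0825, FDR 0.215), and WT was higher than both, at 345 to 408 CPM.

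The log2 fold changes of ventral neural tube genes ranged from near 0 to 0.86, with differing precision. *Nkx6-2*, a ventral patterning factor, was at 2.82, 8.7, 4.69 and 5.24 CPM in *Kat6a*-/- and at 9.85, 13.1, 12.4 and 6.91 CPM in double E/E. The groups overlapped through null replicate 2 and double E/E replicate 4, and the log2 fold change was 0.86 (SE 0.229, FDR 0.195). *Foxa2*, a floor plate and endoderm factor, was at 2.74, 3.72, 7.58 and 5.76 CPM in the null and at 9.45, 15.1, 10 and 7.72 CPM in double E/E. Every double E/E library was above every null library, by a narrow margin between null replicate 3 and double E/E replicate 4. The log2 fold change of *Foxa2* was 0.855 (SE 0.218, FDR 0.185). *Shh*, the secreted ventral signal, was at 5.38, 15.5, 20.3 and 15.8 CPM in the null and at 22.4, 31.8, 25.9 and 19.1 CPM in double E/E. Its groups overlapped, and its log2 fold change of 0.69 had a SE of 0.251 (FDR 0.358). WT was at 29 to 29.7 CPM, above all null libraries. Other ventral genes of the lists did not reach an unadjusted p under 0.05. Their log2 fold changes were -0.02 for *Olig2* (SE 0.321), -0.02 for *Gli1* (SE 0.0767), 0.19 for *Nkx6-1* (SE 0.203) and 0.37 for *Nkx2-2* (SE 0.386). Apart from *Gli1* these SEs are large, and whether these genes differ from *Nkx6-2*, *Foxa2* and *Shh* was not tested.

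Among 36 neuron subtype factors, 4 (11.1%) were higher and 0 lower at an unadjusted p under 0.05 by limma. Among 33 early neuron genes, 5 (15.2%) were higher and 1 (3.03%) lower, against 5.52% and 4.91% of all genes. The medians of the log2 fold change were 0.17 and 0.094. The number of subtype factors higher was 7 without *Kat6a*-/- replicate 2, 6 without double E/E replicate 3 or 4, 2 without *Kat6a*-/- replicate 1 and 1 with only the 8 libraries fitted. *Barhl2*, a factor of dorsal interneurons, was at 1.15, 2.06, 3.05 and 2.15 CPM in *Kat6a*-/- and at 3.74, 3.03, 4 and 3.3 CPM in double E/E, with null replicate 3 just above the lowest double E/E library. Its log2 fold change was 1.01 (SE 0.293, FDR 0.218). *Lhx2* had a log2 fold change of 0.27, which was -0.02 when only the 8 libraries were fitted without surrogate variables, and *Kat6a*-/- replicate 2 held its highest level, 64.2 CPM. The early neuron genes included *Celsr2*, a planar polarity cadherin (log2 fold change 0.25), *Apc2* (0.39), *Nrcam*, an adhesion molecule (0.32), *Nefl*, a neurofilament gene (0.35), and *Elavl4* (0.31). *L1cam*, an axonal adhesion gene, was the lower one (-0.23). The number of early neuron genes higher was 10 without *Kat6a*-/- replicate 2, 9 without double E/E replicate 4, 2 without double E/E replicate 3 and 1 with 0 surrogate variables. Of 28 neural basic helix-loop-helix factors, 5 (17.9%) were higher and 2 (7.14%) lower. There were 3 higher without *Kat6a*-/- replicate 1, *Kat6a*-/- replicate 4 or double E/E replicate 3, and 0 lower without *Kat6a*-/- replicate 2. *Hes1*, a Notch target, was at 43.3, 53.6, 51.2 and 44.4 CPM in the null and at 58.9, 85, 60.3 and 59.7 CPM in double E/E. The groups did not overlap, and here WT, at 44.9 to 52.9 CPM, was at the level of the null, so that double E/E differed from WT (log2 fold change 0.34, FDR 0.01). Against the null the log2 fold change was 0.31 (FDR 0.15), and 0.29 (FDR 0.145) without double E/E replicate 2. The lower ones were *Olig3* (log2 fold change -0.43, SE 0.163) and *Atoh1* (-0.68, SE 0.297), both factors of dorsal progenitors. *Olig3* was at 31.6, 38.6, 19.5 and 21 CPM in the null and at 18.9 to 25.5 CPM in double E/E, so that only null replicates 1 and 2 lay above the double E/E range.

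The FGF genes *Fgf15* and *Fgfbp3* had among the smallest p-values. *Fgf15*, a ligand made in the neural tube and pharyngeal region, was at 19.9, 25.1, 19.9 and 18.5 CPM in *Kat6a*-/- and at 32.4, 33.4, 32.9 and 24.9 CPM in double E/E. Double E/E replicate 4 lay just below null replicate 2, and the other 3 were above all null libraries. This gave a log2 fold change of 0.52 (SE 0.0991) and an FDR of 0.106, the second smallest of all genes. WT was at 20.7 to 29.7 CPM and overlapped both groups, and double E/E differed from it (log2 fold change 0.4, FDR 0.0182). *Fgfbp3*, which encodes an FGF binding protein, was at 13.7, 16.8, 15.6 and 16.3 CPM in the null and at 20, 26.4, 23.4 and 26.4 CPM in double E/E. The groups did not overlap (log2 fold change 0.53, SE 0.119, FDR 0.143), and WT was at 26.6 to 28.1 CPM. The null embryos differed from WT in *Fgfbp3* (log2 fold change -0.7, FDR 0.00151), and the double E/E embryos did not pass that test (-0.17, FDR 0.409).

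**Figure D2:**
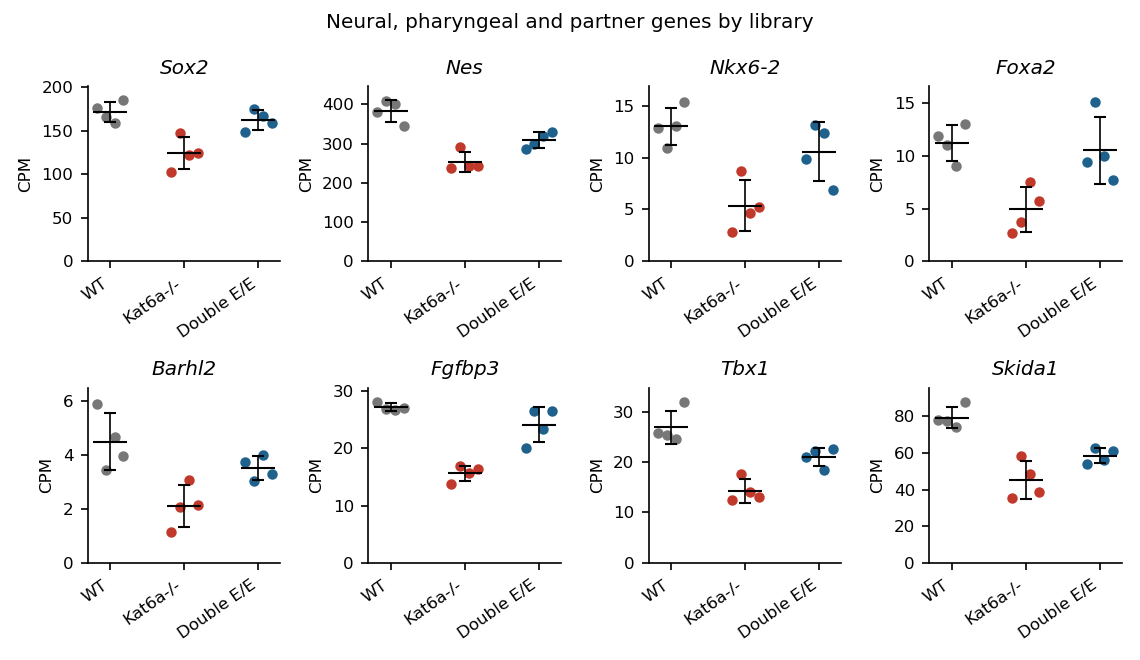
Levels in CPM (y axes, from 0) of 8 genes in WT, *Kat6a*-/- and double E/E libraries (x axes). Points are libraries and bars the mean and SD of 4. The null mean is the lowest in each panel and the double E/E mean lies between those of null and WT, for example *Tbx1* at 12.5 to 17.7 CPM in the null, 18.5 to 22.5 CPM in double E/E and 24.5 to 31.8 CPM in WT.

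The T-box, forkhead and pharyngeal lists, which include regulators of the heart and outflow tract, had 18.2%, 10.8% and 16% of their tested genes higher at an unadjusted p under 0.05, against 5.52% of all genes. The shares lower were 0%, 5.41% and 0%, against 4.91%. *Tbx1* counts in both the T-box and the pharyngeal list. *Tbx1*, the T-box factor of the pharyngeal arches, was at 12.5, 17.7, 14.1 and 13 CPM in *Kat6a*-/- and at 20.9, 22.1, 18.5 and 22.5 CPM in double E/E. All double E/E libraries were above all null libraries, and WT, at 24.5 to 31.8 CPM, was above both. It had a log2 fold change of 0.45 with a 95% confidence interval of 0.22 to 0.67 (FDR 0.162). Of 11 T-box genes, 2 were higher and 0 lower at an unadjusted p under 0.05 by limma. The number was 1 without *Kat6a*-/- replicate 1, *Kat6a*-/- replicate 2 or double E/E replicate 4. The other gene was *Tbx5*, a heart and forelimb factor, with a log2 fold change of 0.23 (FDR 0.474). *Tbx2* (-0.01, interval -0.24 to 0.22) and *Tbx15* (-0.19, interval -0.76 to 0.38) did not pass, and the interval of *Tbx15* is wide.

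Of 37 forkhead genes, 4 were higher and 2 lower. Without double E/E replicate 3 these were 7 and 0, and without *Kat6a*-/- replicate 2 they were 3 and 0. Without *Kat6a*-/- replicate 4 there were 6 higher and 5 lower. The number lower was also 1 without *Kat6a*-/- replicate 1, *Kat6a*-/- replicate 3 or double E/E replicate 1. *Foxe3*, a lens and neural factor, was at 1.59, 2.99, 1.41 and 1.97 CPM in *Kat6a*-/- and at 3.92, 3.37, 4.07 and 3.8 CPM in double E/E, without overlap (log2 fold change 0.93, SE 0.214, FDR 0.147). *Foxa1*, related to *Foxa2*, had a log2 fold change of 0.5 (FDR 0.356). *Foxc1* (0.01, interval -0.12 to 0.15) and *Foxc2* (0.2, interval -0.02 to 0.42), mesodermal factors of the outflow tract, did not pass. Among 25 pharyngeal genes, 4 were higher and 0 lower by limma, namely *Fgf15*, *Tbx1*, *Nkx2-6* (log2 fold change 0.47, with 68.1% of its transcript overlapped by another gene) and *Six2* (0.25). There were 6 without *Kat6a*-/- replicate 2 or double E/E replicate 3, and 2 without double E/E replicate 1. Among 28 heart genes, 2 (7.14%) were higher and 0 lower, *Tbx5* and *Mef2c* (0.21), near the 5.52% of all genes. This count ranged widely with the libraries. The number higher was 0 without *Kat6a*-/- replicate 1 or replicate 2 and with only the 8 libraries, 1 without double E/E replicate 1 or 4, 4 without *Kat6a*-/- replicate 3, 5 without double E/E replicate 3, and 13 without *Kat6a*-/- replicates 3 and 4.

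*Hox* genes set position along the body axis. Of 38 tested, 1 (2.63%) was higher and 0 lower at an unadjusted p under 0.05 by limma. The shares over all genes were 5.52% and 4.91%, and the median log2 fold change of the list was 0.079. Some members were measured with little precision, such as *Hoxa13* (0.95, SE 0.596) and *Hoxc11* (0.85, SE 0.546), so a lack of difference is not shown. With only the 8 libraries fitted 4 were higher, and without both replicates 2 there were 3 lower. The higher gene of the main fit was *Hoxb1*, a hindbrain *Hox* gene, at 14.1, 16.6, 13.2 and 14.4 CPM in *Kat6a*-/- and at 18.8, 24, 17.6 and 22.1 CPM in double E/E. Its groups did not overlap, and the log2 fold change was 0.34 (SE 0.12, FDR 0.322). WT was at 17.2 to 21.5 CPM, in the range of double E/E.

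The targeted genes do not check the labels here, because a substituted codon does not change a count and the deletion removes only part of *Kat6a*. *Kat6a* was at 160 to 171 CPM in the null and 164 to 177 CPM in double E/E, and *Kat6b* was at 42 to 44.1 and 40.7 to 56 CPM, with overlapping groups and log2 fold changes of 0.03 and -0.04. Of 17 KAT6 complex and partner genes, 2 (11.8%) were higher and 0 lower at an unadjusted p under 0.05 by limma, against 5.52% and 4.91% of all genes. These were *Bmi1* and *Skida1*. The BRPF, ING and MEAF6 subunit genes of the list did not reach that p. *Bmi1*, the Polycomb protein that opposes KAT6A at *Hox* genes, was at 97, 88.2, 109 and 109 CPM in the null and at 123, 99.8, 124 and 112 CPM in double E/E. The groups overlapped only through double E/E replicate 2, and the log2 fold change was 0.22 (SE 0.0616, FDR 0.195). *Skida1*, which lies near *Bmi1* on chromosome 2, was at 35.6, 58.2, 48.6 and 38.6 CPM in the null and at 53.9, 62.8, 56.1 and 60.9 CPM in double E/E. The groups overlapped through null replicate 2, and the log2 fold change was 0.33 (SE 0.0842, FDR 0.184). WT was at 73.8 to 87.5 CPM, above both. Among the genes within 5 Mb of *Kat6a*, 4 of 56 (7.14%) were higher and 2 (3.57%) lower. Around *Kat6b*, 5 of 60 (8.33%) were higher and 2 (3.33%) lower, against 5.52% and 4.91% of all genes.

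**Figure D3:**
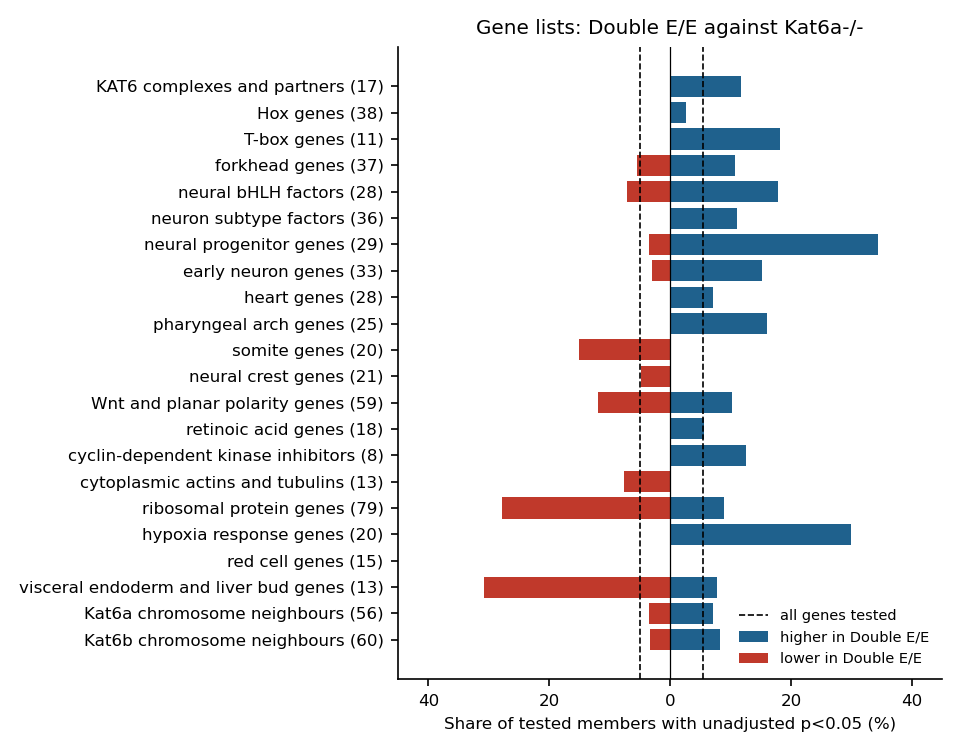
Share of tested members of each gene list with an unadjusted p under 0.05 (x axis, %), higher in double E/E to the right and lower to the left, with the number tested in brackets. The dashed lines are the shares over all genes, 5.52% and 4.91%. Neural progenitor genes (10 of 29) and hypoxia response genes (6 of 20) stand to the right, and ribosomal protein genes (22 of 79) and visceral endoderm genes (4 of 13) to the left.

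Wnt and planar polarity genes went in both directions, with 6 of 59 (10.2%) higher and 7 (11.9%) lower at an unadjusted p under 0.05 by limma. There were 17 lower without *Kat6a*-/- replicates 3 and 4. Those higher included *Sfrp2* and *Sfrp1*, secreted Wnt antagonists, with log2 fold changes of 0.23 (SE 0.0577, FDR 0.168) and 0.21 (SE 0.0701, FDR 0.316). *Sfrp1* is also among the higher genes within 5 Mb of *Kat6a*, and the part of this position was not tested. Those lower included the feedback target *Axin2* and the receptor *Ror1*. *Axin2* was at 150, 146, 126 and 121 CPM in *Kat6a*-/- and at 110, 115, 105 and 117 CPM in double E/E, where WT was at 102 to 119 CPM. The groups did not overlap (log2 fold change -0.31, SE 0.0903, FDR 0.237). *Ror1* was at 43.5 to 51.3 CPM in the null and 38.6 to 42.9 CPM in double E/E, again without overlap. In *Axin2* and *Ror1* the double E/E libraries lay within the WT range and below all null libraries. Neither difference from the null passed the adjusted test (limma FDR 0.237 and 0.191). Of 20 somite genes, 3 (15%) were lower and 0 higher by limma, of which *Uncx*, a factor of the posterior somite, was at 6.62 to 10.8 CPM in the null, 5.86 to 11.3 CPM in double E/E and 12 to 17.3 CPM in WT. The number lower was 0 to 4 over the alternatives and at most 2 when any 1 library was left out. Of 21 neural crest genes, 1 (4.76%) was lower, *Msx1* (log2 fold change -0.26), with 7 lower without *Kat6a*-/- replicates 3 and 4. Of 18 retinoic acid genes, 1 (5.56%) was higher, the degrading enzyme *Cyp26c1* (0.59, SE 0.185). Both shares were near those of all genes, 4.91% lower and 5.52% higher. Of 8 cyclin-dependent kinase inhibitors, 1 (12.5%) was higher, *Cdkn1b* (0.17), and of 13 cytoplasmic actins and tubulins, 1 (7.69%) was lower, *Actb* (-0.1).

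Of 79 ribosomal protein genes, 22 (27.8%) were lower and 7 higher in double E/E at an unadjusted p under 0.05 by limma, and 11 had groups that did not overlap, all lower. The median log2 fold change was -0.101. Their summed level, which the most abundant genes set, overlapped between the groups, at 19392 to 21737 CPM in *Kat6a*-/- and 19245 to 20720 CPM in double E/E. *Rpl37a*, a protein of the large subunit, was at 85.6, 74.4, 72.3 and 74.3 CPM in *Kat6a*-/- and at 56.8, 54.9, 59.7 and 54.3 CPM in double E/E. All double E/E libraries were below all null libraries, and also below all WT libraries, at 71.2 to 78.6 CPM. This was not particular to double E/E. Embryos with the *Kat6a* substitution alone, at 52.6 to 66.5 CPM, and *Kat6b* null embryos, at 52.7 to 68.2 CPM, were also below all WT libraries. Its log2 fold change against the null was -0.37 (SE 0.0801, FDR 0.143), and that against WT was -0.44 (FDR 0.00498). *Rplp2*, a stalk protein, was at 88.3 to 99.2 CPM in the null and 68.7 to 80.9 CPM in double E/E (log2 fold change -0.31), and *Rpl7a* at 205 to 233 and 158 to 176 CPM (-0.34). *Rpl10a* was at 130 to 143 and 94.4 to 113 CPM (-0.4). In these 4 genes double E/E also differed from WT (FDR 0.0038 to 0.0238), and the null did not pass that test. With the *Kat6a* substitution alone, *Rplp2*, *Rpl7a* and *Rpl10a* had means of 72, 169 and 102 CPM. The double E/E means were 74.7, 168 and 107 CPM, and those of *Kat6b* null embryos 74.8, 181 and 121 CPM. The higher ones included *Rplp1* (log2 fold change 0.22), *Rps20* (0.16) and *Rps4x* (0.14), each with overlapping groups. The number lower was 14 to 26 over the alternatives, and the number higher was 3 without *Kat6a*-/- replicate 2 and 2 without double E/E replicate 3. Transcripts at other loci share 80.9% of the *Rpl7a* sequence, 61.2% of *Rpl10a*, 45.9% of *Rplp2* and 7.39% of *Rpl37a* at 98% identity or more. Each share is of the longest transcript. For *Rpl37a* this had 3764 bases, and the share of a shorter transcript was not measured. The values of all 4 genes are therefore uncertain. *Npm1*, a nucleolar protein of ribosome assembly, was higher, at 1029, 943, 972 and 1036 CPM in the null and 1141, 1020, 1173 and 1144 CPM in double E/E. The groups overlapped through double E/E replicate 2, and the log2 fold change was 0.17 (SE 0.0333, FDR 0.106). *Tpt1*, a translationally controlled protein, was at 357 to 394 CPM in the null and 416 to 507 CPM in double E/E (log2 fold change 0.29, SE 0.0604, FDR 0.143), without overlap. Other loci share 17.7% of its longest transcript, of 3340 bases, so this value is uncertain too.

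Of 20 hypoxia response genes, 6 (30%) were higher and 0 lower at an unadjusted p under 0.05 by limma, with a median log2 fold change of 0.219. The high values lay in double E/E replicates 2 and 4. Their summed level was 4927 to 5677 CPM in *Kat6a*-/-, 4818 to 5945 CPM in WT, and 5378, 12370, 5343 and 6734 CPM in double E/E replicates 1 to 4. *Vegfa*, the angiogenic growth factor, was at 68.2, 77.2, 83.7 and 82.3 CPM in the null and at 82.5, 364, 67.5 and 141 CPM in double E/E. Replicates 1 and 3 of double E/E were within or next to the null range. *Ddit4*, a stress-induced inhibitor of mTOR signalling, was at 41.3 to 49.3 CPM in the null and at 36.8, 687, 41.3 and 124 CPM in double E/E. Without double E/E replicate 2, 2 of the 20 were higher and 1 lower, with 0 surrogate variables 13 were higher, and without double E/E replicate 1 or 3 there were 15 and 12. *Kdm3a*, a hypoxia-induced histone demethylase and among the 10 genes of smallest p, was at 99.1, 115, 104 and 104 CPM in the null and 111, 328, 118 and 159 CPM in double E/E. *Soat1*, a cholesterol esterification enzyme, was at 48.9 to 59.7 and at 63.2, 122, 59.7 and 79.1 CPM. Both were highest in double E/E replicate 2. Without it the log2 fold change of *Kdm3a* went from 0.33 to 0.28 (FDR 0.33) and that of *Soat1* from 0.24 to 0.21 (FDR 0.283), and the part of the hypoxia genes in these differences was not tested.

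**Figure D4:**
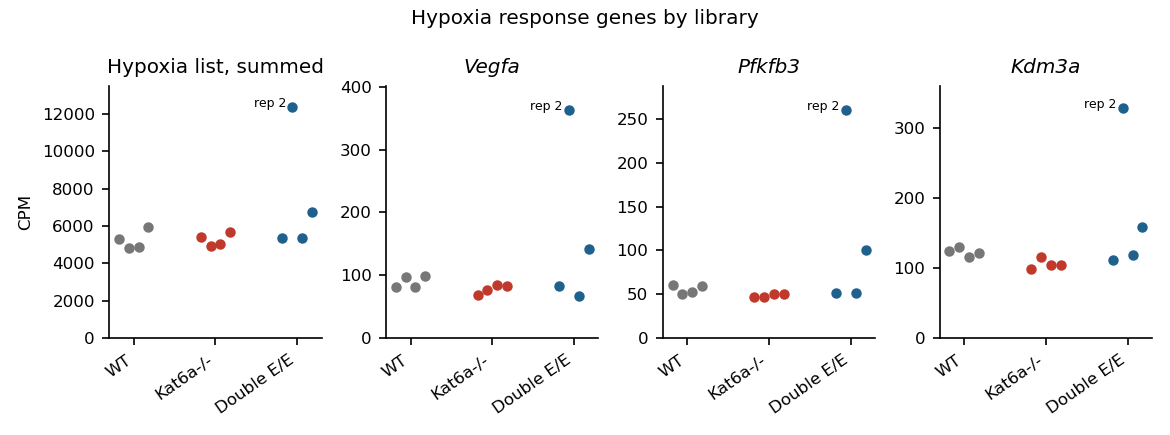
Summed CPM of the hypoxia response list and CPM of *Vegfa*, *Pfkfb3* and *Kdm3a* (y axes, from 0) in WT, *Kat6a*-/- and double E/E libraries (x axes), 1 point a library. Double E/E replicate 2 is the highest point in every panel, at 12370 CPM for the list, and double E/E replicate 4 is next at 6734 CPM.

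Of 13 visceral endoderm and liver bud genes, 4 (30.8%) were lower and 1 (7.69%) higher at an unadjusted p under 0.05 by limma. The high values lay in null replicates 3 and 4. Their summed level was 35.6, 16, 74.6 and 211 CPM in *Kat6a*-/-, 50.6 to 63.1 CPM in double E/E and 50.2 to 223 CPM in WT. *Apob*, an apolipoprotein of lipid export, was at 1.85, 1.26, 8.68 and 20.6 CPM in the null and at 1.64 to 2.43 CPM in double E/E, and reached 34.1 CPM in WT replicate 4. Null replicates 1 and 2 were thus at the double E/E level. Without null replicate 4, 1 of the 13 was lower and 4 were higher, and without null replicates 3 and 4 these were 1 and 5. Of 15 red cell genes, 0 were higher and 0 lower at an unadjusted p under 0.05 by limma, with a median log2 fold change of -0.2. Their summed level was 5230 to 11595 CPM in the null and 4912 to 7389 CPM in double E/E.

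Among the 10 lower genes with the smallest p, *Galt* and *Il11ra2* lie on chromosome 4, and the other 8 were *Rpl37a*, *Ssbp4*, *Wnk2*, *Zdhhc8*, *Rplp2*, *Csf2ra*, *Rhog* and *Mvb12b*. *Galt*, an enzyme of galactose metabolism (chr4:41755186-41760050, plus strand), was at 20.5, 20, 22.4 and 23.7 CPM in *Kat6a*-/- and at 11.2, 14.2, 11.2 and 13.4 CPM in double E/E. The groups did not overlap, and the log2 fold change was -0.76 (SE 0.169, FDR 0.15). WT replicate 1, from a litter of the null embryos, was at 23.8 CPM, and the other 3 WT libraries were at 9.06 to 12.5 CPM. The same division was seen in 3 neighbours, which were chosen after their values were seen and are given without a test. *Dctn3*, a dynactin subunit (chr4:41714797-41723209, minus strand), was at 59.6 to 84.3 CPM in the 5 libraries from litters of the null embryos and at 32.4 to 46.3 CPM in the 19 others. *Rpp25l* and *Il11ra1* were 1.86 and 1.73 times as high in those 5 libraries, again without overlap. These genes were thus at the null level also in the WT litter-mate, a single library, and the part of litter was not tested. *Il11ra2* was at 2.19 to 4.45 CPM in the null and 0.934 to 1.72 CPM in double E/E, and 99.9% of its transcript is shared with other loci, *Il11ra1* among them, so its value is uncertain.

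**Figure D5:**
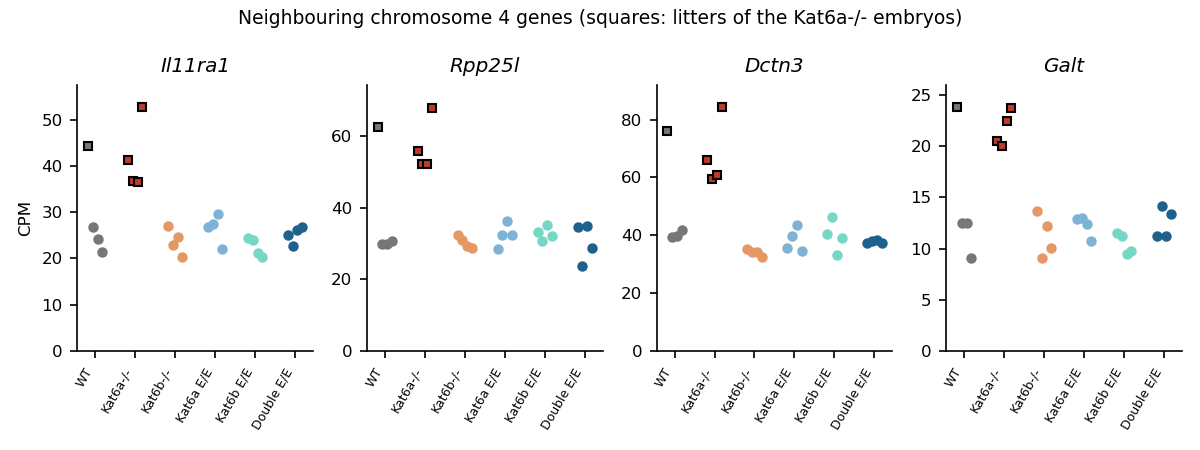
CPM (y axes, from 0) of 4 neighbouring genes of chromosome 4 in the 24 libraries by genotype (x axes). Squares are the 5 libraries from litters of the *Kat6a*-/- embryos and circles the 19 others. The squares, WT replicate 1 among them, are above all circles, for example *Galt* at 20 to 23.8 CPM against 9.06 to 14.2 CPM.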

How the data were processed

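The authors aligned paired-end reads of unstranded TruSeq libraries to mm39 with Rsubread and deposited the featureCounts count of read pairs per RefSeq gene. The E14.5 files were not used here. Gene types came from a RefSeq table for GRCm38.p6 (26359 of 26411 genes matched, 52 left out), and positions from GENCODE vM39 on GRCm39. Following the study's methods, protein-coding genes outside the Y chromosome passed filterByExpr and TMM scaling. All 24 embryo libraries were fitted with voomLmFit, with 4 surrogate variables from wsva, litter as blocking factor and robust moderation (R 4.3.3, limma 3.58.1, edgeR 4.0.16). FDR is adjusted by Benjamini-Hochberg over 14183 genes. Replicates are separate embryos, some of 1 litter.

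The comparison, with its libraries taken by label, and the gene lists were chosen with earlier results of these data known. The naming rule took *Kat6a*, *Kat6b*, *Bmi1*, genes with FDR<0.05, the 10 genes of smallest p in each direction with a mean of 1 CPM or more, 7 T-box and forkhead genes of the study, and up to 4 members of each list with p under 0.05. Other list members given with values, and the neighbours of *Galt*, were picked after their values were seen. Sequence shared between genes was searched with blastn in GENCODE transcripts (98% identity over 75 bases). The fit was tested on simulated counts that held no litter effect or hidden variation. It called 72% of 100 genes changed by 0.5 on the log2 scale and 91% of 100 changed by 1. It also called 10 unchanged genes. The simulation cannot show how the fit handles litter or hidden variation. Alternatives were other numbers of surrogate variables, edgeR and DESeq2 1.42.0, other scalings and filters, a replicate block, and omission of libraries. Joint omissions of libraries that stood apart were added after the data were seen.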

Additional observations from a re-analysis of the deposited data

Results flagged for a closer look

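Among the named genes, 15 of 160 groups of 4 libraries (9.38%) held a library far from the other 3 by Dixon's criterion of 0.829, where chance gives about 1 in 20. In 7 of the 15 this was double E/E replicate 2, the library with high hypoxia response RNA. It was high for *Kat6b* (56 CPM), *Ssbp4* (45 CPM), *Hes1* (85 CPM), *Mesp2* (1.38 CPM), *Higd1a* (55.3 CPM) and *Zfp703* (126 CPM), and low for *Dennd6a* (90.1 CPM). In the other double E/E libraries, *Fgf15* was low in replicate 4 (24.9 CPM), *Lhx5* was high in replicate 3 (13.5 CPM) and *Ror1* was high in replicate 4 (42.9 CPM). In *Kat6a*-/-, replicate 1 was high for *Rpl37a* (85.6 CPM) and low for *Dbx1* (6 CPM), replicate 2 was high for *Nes* (291 CPM) and low for *Actb* (2702 CPM), and replicate 3 was high for *Tbx2* (42.9 CPM).

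*Xist*, the RNA of the inactive X chromosome and outside the tested genes, had 7934 counts in *Kat6a*-/- replicate 2 and at most 6 in each of the other 7 libraries compared. Of all 24 embryo libraries, 3 had such *Xist* counts with fewer than 10 counts of Y-linked genes.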

How the results depend on the processing

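The count of genes with FDR<0.05 between double E/E and *Kat6a*-/- depended on the fit. It was 0 with 0 or 2 surrogate variables, 0 by edgeR with 0 surrogate variables, and 0 when only the 8 libraries were fitted, where 1641, 1307, 1962 and 795 genes had an unadjusted p under 0.05. It was 43 with 6 surrogate variables, 45 by DESeq2 and 4 without the filter on low counts, and 1 by edgeR with 4 surrogate variables. Leaving out 1 library gave 0 to 13. Of the omissions added after the data were seen, that of both replicates 2 gave 18, that of *Kat6a*-/- replicates 3 and 4 gave 49, and those with 0 surrogate variables gave 0, without double E/E replicate 2 and without both replicates 2 (1093 and 770 at an unadjusted p under 0.05). The cause was not tested. The numbers higher and lower at an unadjusted p under 0.05 moved by over 1.5 times in 2 alternatives, to 400 and 395 with only the 8 libraries and to 386 and 384 without both replicates 2 and with 0 surrogate variables. *Bhlhe22* was called in 14 of the 24 alternatives with an adjusted p. DESeq2 gave none for it. Of 83 named genes under 25 alternatives, the sign changed as follows. *Lhx2* was -0.02 with only the 8 libraries and *Nefl* was -0.008 with 0 surrogate variables and without double E/E replicate 2. *Foxc1*, *Kat6a*, *Kat6b* and *Tbx2*, with values near 0 and an unadjusted p above 0.05 throughout, kept their sign in 20 to 22 of the 25.

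With the replicate number as a block, 3 genes were called (*Bhlhe22*, *Sox2* and *Rpl37a*). Same-numbered libraries had correlated deviations of -0.057 to 0.123, so the numbers were not taken as pairs. Not every sample correlated best with its own number. Counts of 8 to 25 read pairs for *Bhlhe22* in the *Kat6a*-/- libraries limit its precision.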
